A study of Mus musculus with 6 samples.

Results

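Chromatin accessibility was examined at 9 genes of renal phosphate handling: the sodium-phosphate cotransporters Slc34a1, Slc34a3, Slc20a1 and Slc20a2, the scaffold proteins Pdzk1 and Slc9a3r1, the parathyroid hormone (PTH) receptor Pth1r, klotho (Kl) and the FGF receptor Fgfr1. A region belonged to a gene when the strongest summit of its peaks lay in the gene body or within 20 kb of it, which gave 110 of the 99340 regions formed from all libraries. Of these, 13 were own promoters (summit within 1 kb of an annotated start of the gene), 13 were promoters of a neighbouring protein-coding gene by the same distance, and 84 were distal, meaning all others. Distance assigns a region to a gene and does not show that the region acts on it.

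The assay was ATAC-seq, in which a transposase inserts sequencing adapters into open chromatin, so that peaks mark accessible DNA. Each library came from 3 microdissected tubule pieces, 200 to 300 µm long, of the S1 segment, the first stretch of the proximal tubule, from wild-type male C57BL/6 mice operated on at 7 weeks of age. The groups were 3 libraries taken 24 h after a sham operation (Sham) and 3 taken 24 h after unilateral nephrectomy (UNx), the surgical removal of 1 kidney. The labels do not say whether the libraries of a group came from separate mice, so p-values measure only the spread between these libraries, which may be partly technical.

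The proximal tubule takes filtered phosphate back from the urine through sodium-coupled cotransporters in its brush border, and the abundance of these proteins in the membrane sets how much phosphate the body keeps. PTH, through its receptor, and FGF23, through FGF receptors with klotho as co-receptor, make the cell withdraw the cotransporters from the membrane. The PDZ-domain scaffolds PDZK1 and NHERF1 (the product of Slc9a3r1) hold the cotransporters in place.

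The sequences below are stretches of the reference genome (GRCm38, RefSeq assembly) around the summits of some of the regions on which the results turn, 5′ to 3′ on the strand of the named gene, with annotated untranslated bases trimmed away. Capitals mark matches to the strings searched. The first pair shows the strongest distal region of Slc34a1, 6365 bp before the gene (chr13:55391722-55391922, plus strand), and its strongest promoter region, at an internal start (chr13:55399405-55399605, plus strand). They are followed by the promoters of Pth1r (chr9:110747123-110747320, minus strand) and Pdzk1 (chr3:96829934-96830075, plus strand), where no Sham value overlapped a UNx value. The last 2 are the intronic Fgfr1 regions with the smallest p-values (chr8:25537267-25537467 and chr8:25566924-25567124, plus strand).
Slc34a1 distal: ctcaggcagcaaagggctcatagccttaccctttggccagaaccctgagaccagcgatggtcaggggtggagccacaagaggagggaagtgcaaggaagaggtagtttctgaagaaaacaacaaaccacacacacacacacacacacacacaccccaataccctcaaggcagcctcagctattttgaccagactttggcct
Slc34a1 promoter: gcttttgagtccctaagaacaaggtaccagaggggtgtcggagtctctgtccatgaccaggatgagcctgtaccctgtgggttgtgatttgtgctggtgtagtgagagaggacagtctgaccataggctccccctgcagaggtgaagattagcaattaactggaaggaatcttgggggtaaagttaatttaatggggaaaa
Pth1r promoter: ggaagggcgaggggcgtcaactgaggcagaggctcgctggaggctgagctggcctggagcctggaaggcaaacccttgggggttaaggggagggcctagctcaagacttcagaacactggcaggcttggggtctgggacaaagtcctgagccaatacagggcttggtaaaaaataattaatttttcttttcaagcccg
Pdzk1 promoter: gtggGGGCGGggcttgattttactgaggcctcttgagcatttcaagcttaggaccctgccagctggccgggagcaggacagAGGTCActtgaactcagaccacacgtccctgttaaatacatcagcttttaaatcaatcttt
Fgfr1 intron, first: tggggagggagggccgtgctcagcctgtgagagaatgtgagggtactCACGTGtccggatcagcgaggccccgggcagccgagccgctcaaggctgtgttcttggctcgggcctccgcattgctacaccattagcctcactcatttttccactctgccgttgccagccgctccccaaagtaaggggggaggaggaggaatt
Fgfr1 intron, second: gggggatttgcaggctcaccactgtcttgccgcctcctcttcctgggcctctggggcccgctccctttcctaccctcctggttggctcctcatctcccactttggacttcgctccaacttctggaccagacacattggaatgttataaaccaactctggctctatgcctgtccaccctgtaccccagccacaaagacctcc

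Of 14 short strings typical of transcription factor families, searched on both strands within 100 bp of each summit, the first Fgfr1 intron site held 1, the E-box CACGTG. This string occurred in 7 of the 95 tested regions of the 9 genes (7.37%) and in 4.76% of all tested regions. The Pdzk1 promoter held the SP string GGGCGG and the nuclear receptor half-site AGGTCA, found in 17.2% and 19.4% of all tested regions. Its HNF4 string CAAAGTCCA, found in 2.41% of all tested regions, lay in the bases trimmed away. No searched string occurred in the other sequences shown. A match describes letters and not a bound factor.

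The values are percentile ranks: the 77355 strongest peaks of each library were ranked by the authors' −log10 q, 100 being the strongest, and a region not among them took 0. A rank compares a region with the other peaks of its own library and is not an amount of accessibility. Sequencing depth is unknown, and the deposited lists held 77355 to 100999 peaks, Sham 2 the fewest. Among the peaks kept, the 9 genes had 104, 105 and 95 peaks in the Sham and 103, 96 and 101 in the UNx libraries, a difference in means of -1.33 peaks. The groups overlapped in this count. Of the 110 regions, 75 were present in all 6 libraries and 10 in 1 library, and 95 were present in at least 3 and were tested with limma.

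After nephrectomy, 2 of the 95 tested regions rose and 0 fell at a limma adjusted p under 0.05, and both were distal regions of Fgfr1. Over the whole table, 604 of 74774 tested regions passed in either direction (0.808%) and 332 were higher in UNx (0.444%). Among all tested regions over 1 kb from a coding start, 0.895% passed, against 2 of the 70 distal regions here. None of the 13 own promoters passed in limma, and 1, that of Pth1r, had an unadjusted p under 0.05. An unadjusted limma p under 0.05 was reached by 15 of the 95 regions, 14 of them higher in UNx, against 18.6% of all tested regions.

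The promoters of the cotransporter genes were open in every library, and none passed the test. Slc20a1, which encodes the widely expressed cotransporter PiT-1, had the strongest promoter of the 9 genes, at chr2:129197912-129199383. Its percentile ranks were 99.3, 99.2 and 98.3 in Sham and 98.9, 98.9 and 99.3 in UNx libraries. The groups overlapped, with a difference (UNx minus Sham) of 0.062 ± 1.19 (limma SE, adjusted p = 0.987). Slc20a2, which encodes the related PiT-2, ranked lower. The summit of its promoter region at chr8:22476167-22477225 lay 64 bp before the gene, in an untranslated exon of Smim19, so that the open site is shared with that gene. The ranks there were 83.3, 81.1 and 84.8 in Sham and 92.0, 79.3 and 81.4 in UNx, where only UNx 1 exceeded the Sham values (adjusted p = 0.895 by limma).

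Slc34a1 encodes NaPi-IIa, the main phosphate cotransporter of the mouse brush border, and its strong promoter signal sat at an internal start and not at the 5′ end of the gene. The region at chr13:55399030-55400051 had its summit 188 bp before an annotated start inside the gene, in an intron of the longer transcript, 1318 bp from the 5′ end. It ranked at 91.2, 91.9 and 90.5 in Sham and at 95.5, 94.5 and 91.3 in UNx libraries. By contrast, the region at the outermost start, chr13:55398018-55398383, ranked at 2.42, 29.7 and 0 in Sham and at 2.14, 0 and 31.0 in UNx. The outer start thus carried a weak peak in 4 of the 6 libraries among the peaks kept. At the internal start the UNx mean exceeded the Sham mean by 2.57 ± 1.86, and UNx 3 lay within the Sham range (limma adjusted p = 0.482).

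The strongest distal region of Slc34a1, chr13:55390418-55392295, lay 6365 bp before the gene, in intergenic sequence with Slc34a1 as the nearest coding gene. It ranked at 97.3, 95.3 and 97.0 in Sham and at 96.5, 98.6 and 97.5 in UNx, above the internal promoter in all 6 libraries. The difference was 1.04 ± 1.39 (limma adjusted p = 0.734), and the groups overlapped. It was 0.422 to 1.56 with 1 library left out and 33.6 when a reciprocal overlap of 50% defined the regions (adjusted p = 0.731). The authors' fold enrichment there was 7.57 to 8.82 in Sham and 8.59 to 9.39 in UNx. Across the 9 tested regions of Slc34a1, no groups were separate, against 23.7% of all tested regions. The smallest unadjusted p of the gene was at chr13:55429300-55429594, which is 13809 bp past the end of Slc34a1 and 2608 bp from a start of F12. It ranked at 14.9, 56.7 and 15.7 in Sham and at 18.6, 0 and 0 in UNx (difference -22.9 ± 11.9, limma adjusted p = 0.315), with Sham 2 standing apart.

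Slc34a3 encodes NaPi-IIc, the second brush border cotransporter of this family. Its promoter region, chr2:25234002-25235744, ranked at 90.4, 90.8 and 90.2 in Sham and at 95.8, 94.0 and 90.4 in UNx. The summit lay 644 bp before the gene in an untranslated exon of Rnf224. As at Slc34a1, UNx 1 and UNx 2 lay above the Sham values and UNx 3 within them (difference 2.97 ± 1.96, limma adjusted p = 0.435). The gene is short, 5467 bp, and 8 of its 12 regions were promoters of neighbours. Of its 3 distal regions the strongest, chr2:25228405-25228936, lay 114 bp past the end of the gene and ranked at 68.5, 69.7 and 68.2 in Sham and at 80.8, 67.5 and 67.8 in UNx. The groups overlapped there (difference 3.20 ± 5.37, limma adjusted p = 0.797).

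**Figure D1:**
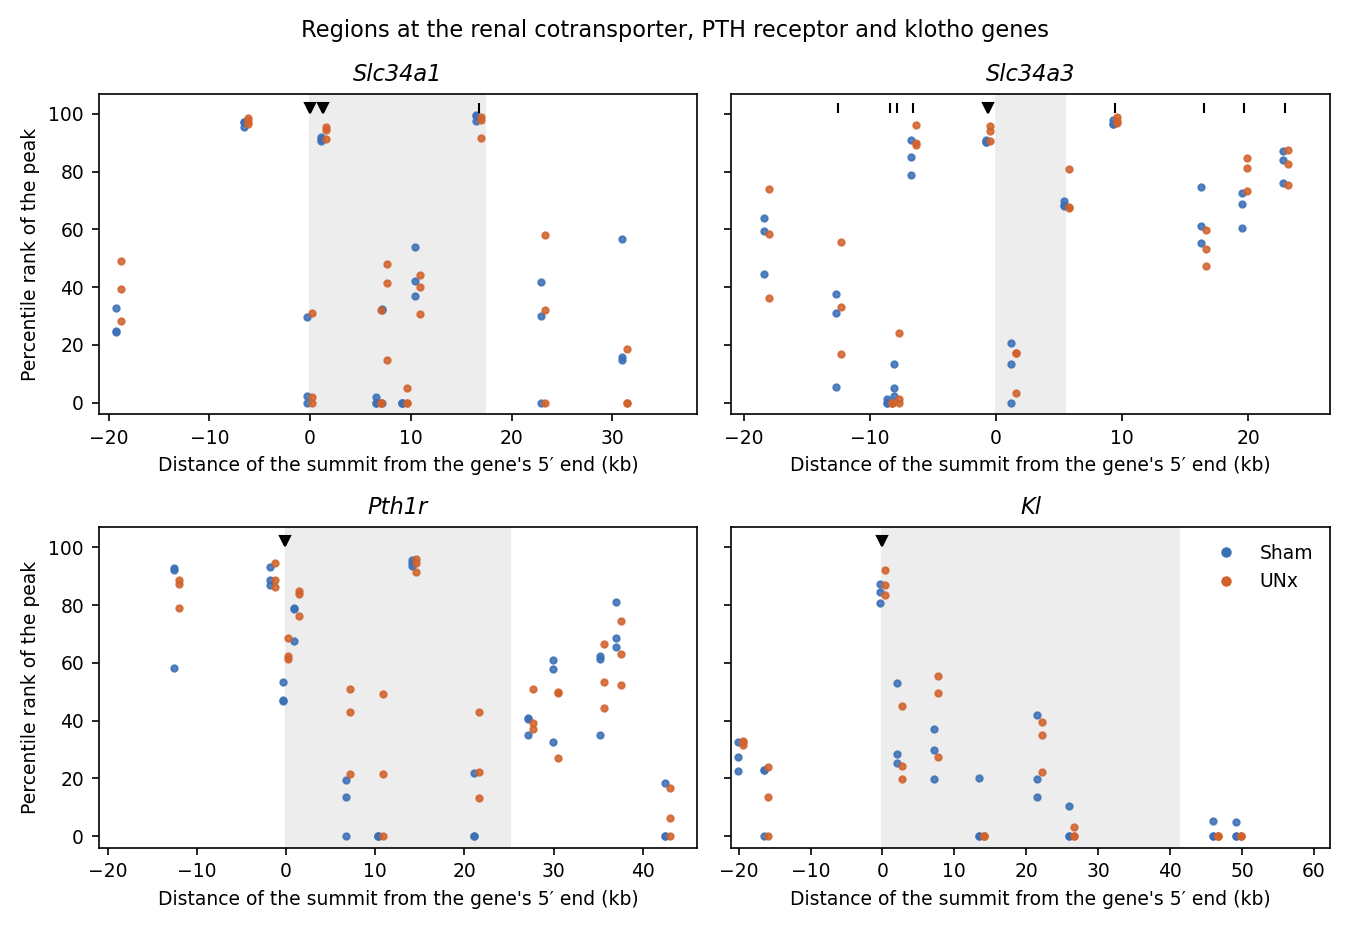
Percentile rank of each region in each library against the distance of its summit from the 5′ end of the gene, in kb along the gene's strand, for Slc34a1, Slc34a3, Pth1r and Kl. Blue points are Sham and orange points UNx libraries, drawn slightly apart, grey marks the gene body, triangles at the top mark own promoters and ticks mark promoters of neighbouring genes. Slc34a1 has its strong regions at -6365 bp and at the internal start at 1318 bp, and the points of the weak outer start lie between 0 and 31.0.

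Among tested distal regions of the PiT genes, groups were separate in 1 of 3 at Slc20a1 and in 3 of 13 at Slc20a2, none past the threshold. The share was 24.4% among all tested regions over 1 kb from a coding start. At Slc20a1 the region chr2:129212071-129213294, 1127 bp past the end of the gene, ranked at 80.0, 84.9 and 79.6 in Sham and at 92.3, 86.8 and 90.2 in UNx. All UNx values were above all Sham values (difference 8.28 ± 2.83, limma unadjusted p = 0.009, adjusted p = 0.135). At Slc20a2 the intronic region chr8:22508127-22508921 ranked at 44.3, 28.7 and 33.4 in Sham and at 56.2, 44.3 and 66.0 in UNx. The highest Sham and the lowest UNx value were 44.3 after rounding and did not overlap (difference 20.0 ± 9.04, limma adjusted p = 0.244). The strongest distal region of Slc20a2, in an intron at chr8:22494037-22494965, ranked at 86.3, 88.0 and 84.9 in Sham and at 89.1, 84.9 and 82.0 in UNx, with overlapping groups (limma adjusted p = 0.877). Across the 13 tested distal regions of Slc20a2, 6 differences were above 0 and 7 below.

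Among the scaffolds, the promoter of Pdzk1 was the second lowest of the 9 in rank and that of Slc9a3r1 was among the high ones. The Pdzk1 region, chr3:96829268-96830354, had its summit 42 bp before an annotated start of Pdzk1, and a start of the neighbouring gene Cd160 also lay within 1 kb. The region ranked at 72.5, 70.4 and 71.4 in Sham and at 74.6, 77.8 and 82.1 in UNx. The groups were separate by rank and by the authors' fold enrichment (4.08 to 4.52 in Sham and 4.66 to 5.24 in UNx), and the difference of 6.71 ± 4.48 did not pass (limma adjusted p = 0.441). A second promoter region of Pdzk1, 916 bp past an annotated start, ranked at 72.0, 49.6 and 71.6 in Sham and at 50.2, 60.6 and 40.0 in UNx, with overlapping groups and a difference of the other sign (-14.1 ± 8.01, limma adjusted p = 0.356). The Slc9a3r1 promoter, chr11:115162978-115163522, ranked at 87.8, 94.2 and 94.5 in Sham and at 92.7, 89.6 and 84.2 in UNx. Its groups overlapped (difference -3.37 ± 2.5, limma adjusted p = 0.495). The difference was -1.08 without UNx 3, -2.20 without Sham 3, -5.29 without UNx 1 and -5.55 without Sham 1.

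Pdzk1 had the most regions of the 9 genes, 17, some of them in the neighbouring genes Cd160 and Gpr89. The region of smallest unadjusted p, chr3:96819877-96821022, lay 8834 bp before Pdzk1 in an intron of Cd160, a gene of T and natural killer cells. It ranked at 78.7, 69.8 and 83.6 in Sham and at 91.1, 91.4 and 82.7 in UNx. UNx 3 lay within the Sham range (difference 11.0 ± 3.83, limma adjusted p = 0.140). The strongest distal region, chr3:96812741-96813015, also in an intron of Cd160, ranked at 89.4, 91.8 and 88.6 in Sham and at 88.3, 89.2 and 73.6 in UNx, with UNx 3 the lowest (limma adjusted p = 0.337).

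A single region of the 110 belonged to one operation alone, with a peak in all 3 UNx and in 0 Sham libraries. It was chr3:96873513-96874208, 2941 bp past the end of Pdzk1 in an intron of Gpr89, which ranked at 2.15, 14.2 and 5.88 in UNx. These are weak peaks, with −log10 q values of 5.03, 11.1 and 9.57, and the full list of Sham 1 also held a peak there (−log10 q 2.58). Over all regions, 1944 of 99340 (1.96%) were exclusive to one operation in this way. The limma difference was 7.41 ± 6.74 (adjusted p = 0.592).

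At Slc9a3r1, 10 of the 12 tested regions had a positive difference. The groups were separate in 3 of the 12, a share near the 23.7% over all tested regions, and these 3 were intronic and higher in UNx. The strongest distal region by mean, chr11:115164932-115165587, lay 1853 bp inside the gene and ranked at 68.6, 63.3 and 65.4 in Sham and at 82.2, 71.5 and 76.8 in UNx. The difference was 11.1 ± 5.10 (limma adjusted p = 0.252). The region of smallest unadjusted p, chr11:115172652-115173087, ranked at 12.8, 0 and 3.82 in Sham and at 33.9, 17.1 and 45.9 in UNx (difference 26.7 ± 10.8, limma adjusted p = 0.193). Where this region had a peak, it ranked below the middle of the peaks kept in that library.

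Of the receptors, Pth1r, a G protein-coupled receptor for PTH, had the lowest-ranked promoter of the 9 genes under the 1 kb rule. The region chr9:110746949-110747385 had its summit 98 bp before an annotated start, inside the span of the neighbouring gene Myl3. It ranked at 47.1, 53.5 and 46.9 in Sham and at 62.4, 61.4 and 68.6 in UNx. Every UNx value was above every Sham value, a difference of 15.0 ± 6.91 that did not pass the adjusted threshold (limma unadjusted p = 0.0433, adjusted p = 0.253). The authors' fold enrichment was also separate, 3.05 to 3.20 in Sham and 3.37 to 3.71 in UNx. Ranking by fold enrichment gave this region no tested value. Stronger regions with overlapping groups lay just outside the 1 kb rule. At 1190 bp past an annotated start, ranks were 79.0, 78.6 and 67.6 in Sham and 83.7, 76.3 and 84.9 in UNx (limma adjusted p = 0.448). At 1501 bp before a start, they were 93.2, 87.0 and 88.7 in Sham and 88.8, 94.7 and 86.3 in UNx (limma adjusted p = 0.967).

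Inside Pth1r a much stronger site did not separate the operations. The intronic region chr9:110732418-110733427, 14341 bp from the 5′ end, ranked at 95.5, 94.6 and 93.5 in Sham and at 91.3, 94.4 and 96.1 in UNx (difference -0.63 ± 1.73, limma adjusted p = 0.885). The smallest unadjusted p of the gene was at a weaker intronic region, chr9:110739833-110740353. It ranked at 0, 19.4 and 13.6 in Sham and at 50.8, 21.6 and 43.0 in UNx (difference 27.5 ± 11.4, limma adjusted p = 0.207). The groups did not overlap, although UNx 2 was close to Sham 2.

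Kl encodes klotho, the co-receptor that gives FGF receptors their affinity for FGF23. Its promoter, chr5:150952312-150953770, ranked at 84.7, 87.3 and 80.8 in Sham and at 87.0, 83.4 and 92.1 in UNx. The groups overlapped (difference 3.28 ± 2.97, limma adjusted p = 0.589), and the difference was 0.979 without UNx 3, 1.56 without Sham 3 and 5.32 without UNx 2. Outside the promoter the Kl locus held only weaker regions: the strongest of its 9 distal regions by mean, in an intron at chr5:150959839-150961623, ranked at 19.8, 29.8 and 37.2 in Sham and at 27.6, 49.7 and 55.3 in UNx. The groups overlapped there too (difference 15.2 ± 10.5, limma adjusted p = 0.458), and 4 of the 9 were present in fewer than 3 libraries.

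Fgfr1 encodes a receptor tyrosine kinase that binds FGF23 together with klotho. Its main promoter did not separate the operations. That region, chr8:25518570-25519869, had its summit 10 bp before an annotated start and ranked at 93.9, 91.6 and 92.3 in Sham and at 95.3, 92.8 and 89.8 in UNx (difference 0.047 ± 1.92, limma adjusted p = 0.993). A second promoter region, 522 bp past another annotated start, ranked at 48.1, 47.0 and 50.8 in Sham and at 47.6, 50.3 and 57.3 in UNx. The groups overlapped at both promoters.

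The first of the regions that rose after nephrectomy was in an intron of Fgfr1, chr8:25536681-25537931, 23713 bp from the 5′ end and 5086 bp past the nearest annotated start. It ranked at 65.0, 57.7 and 54.0 in Sham and at 84.5, 82.2 and 84.3 in UNx libraries. The lowest UNx value stood well above the highest Sham value, and the UNx values lay close together. The mean was 58.9 ± 5.63 (SD, n = 3) in Sham and 83.6 ± 1.29 (SD, n = 3) in UNx, and the limma difference of 24.8 ± 5.09 passed the threshold (adjusted p = 0.0367). The authors' fold enrichment moved the same way without overlap, from 7.59, 6.07 and 6.64 in Sham to 9.35, 8.88 and 9.39 in UNx.

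The second was 10978 bp past the end of Fgfr1, in a coding exon of Letm2, a gene for a mitochondrial inner membrane protein, and 10800 bp from the nearest start of that gene. It ranked at 77.7, 73.6 and 74.2 in Sham and at 89.9, 86.7 and 93.3 in UNx, again with separate groups. The mean was 75.2 ± 2.23 (SD, n = 3) in Sham and 90.0 ± 3.29 (SD, n = 3) in UNx, a limma difference of 14.8 ± 3.29 (adjusted p = 0.0443). Here the fold enrichment overlapped between the groups, at 15.9, 9.83 and 16.2 in Sham and 15.7, 17.6 and 18.7 in UNx. It was the strongest distal region of Fgfr1 by mean rank.

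Both calls lay close to the threshold and depended on the fit. Of 17 other settings, each gave both regions a positive difference, but only normal scores of the ranks kept the calls. The adjusted p ranged from 0.0150 to 0.358 for the intronic region and from 0.0352 to 0.389 for the region in Letm2. The differences were 22.3 to 27.8 and 13.1 to 16.4 with 1 library left out, and 16.1 and 6.33 with ranking by fold enrichment. The count of called regions was 0 when any 1 of the 6 libraries was left out, because both calls were lost each time. Over all tested regions, 31 to 368 passed in these fits, against 604 with all 6 libraries.

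Another region, in an intron at chr8:25566498-25567406, was chosen after its values were seen. It ranked at 26.8, 43.0 and 24.6 in Sham and at 61.7, 52.6 and 68.9 in UNx, without overlap. Its difference of 29.6 ± 8.89 was larger than those of the called regions and missed the threshold (limma adjusted p = 0.0982). Its fold enrichment was 6.57, 6.35 and 6.52 in Sham and 10.7, 10.5 and 14.8 in UNx. Other distal regions of Fgfr1 did not share this pattern: of its 9 tested distal regions, 6 had a positive difference and 3 a negative one, and the other 6 had overlapping groups. Groups were thus separate in 3 of the 9, against 24.4% of all tested regions over 1 kb from a coding start.

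**Figure D2:**
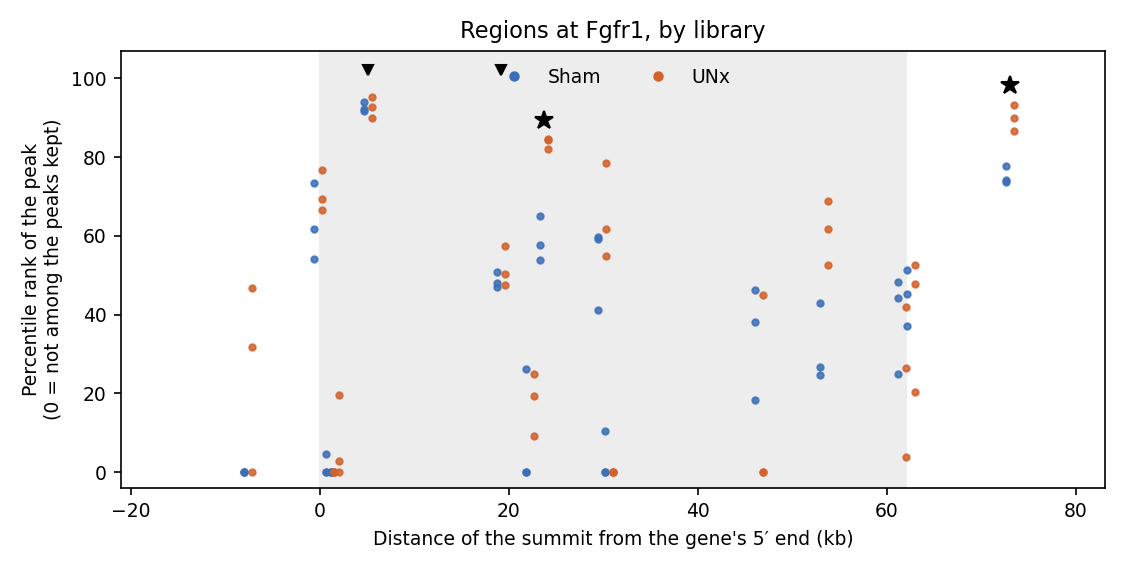
Percentile rank of every Fgfr1 region in each library against the distance of its summit from the 5′ end of the gene (kb). Blue points are Sham and orange points UNx libraries, drawn slightly apart, grey marks the gene body, triangles mark own promoters and stars the 2 regions with a limma adjusted p under 0.05, at 23713 and 73042 bp. At both starred regions all orange points lie above all blue points, while at the main promoter (5095 bp) they overlap.

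Ordered by the Sham mean, the promoters ran from Slc20a1 (98.9 ± 0.533, SD, n = 3) through Fgfr1 (92.6 ± 1.21), Slc9a3r1 (92.2 ± 3.78), Slc34a1 (91.2 ± 0.712), Slc34a3 (90.5 ± 0.332), Kl (84.2 ± 3.26), Slc20a2 (83.1 ± 1.83) and Pdzk1 (71.5 ± 1.05) to Pth1r (49.1 ± 3.76). Neighbours in this order whose Sham values overlapped were Fgfr1 with Slc9a3r1, Slc9a3r1 with Slc34a1, Slc34a1 with Slc34a3, and Kl with Slc20a2. In UNx, Slc20a1 (99.0 ± 0.249) and Pth1r (64.1 ± 3.88) kept the ends of the order. Slc34a1 (93.8 ± 2.24) and Slc34a3 (93.4 ± 2.75) then followed Slc20a1, with values overlapping those of Fgfr1 (92.7 ± 2.75). These are ranks of peaks and say nothing of transcript levels.

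**Figure D3:**
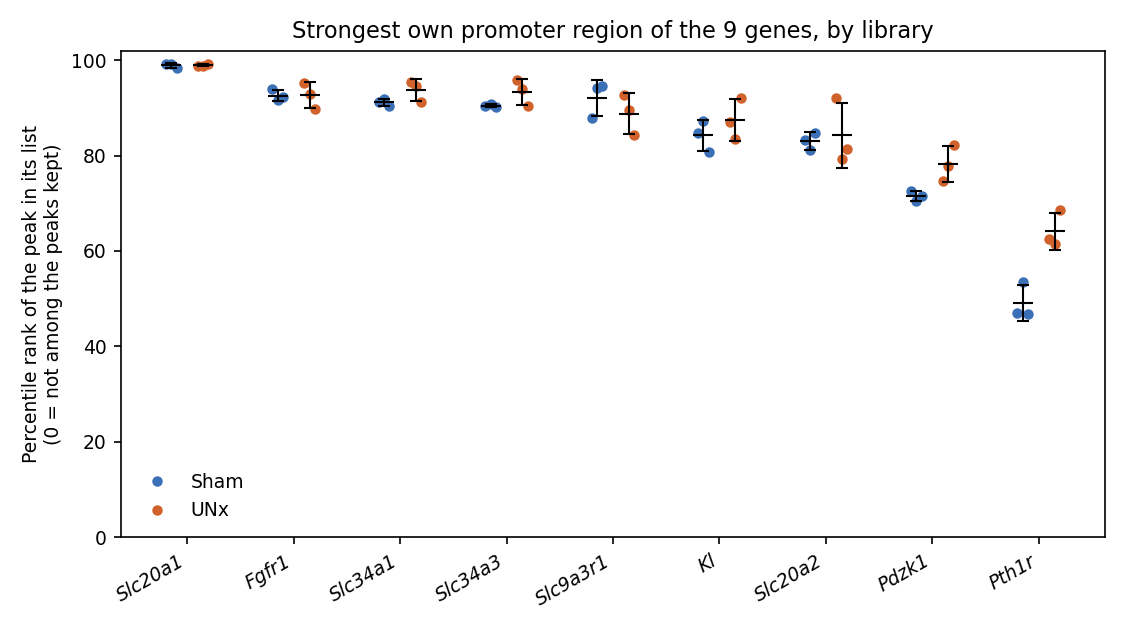
Percentile rank of the strongest own promoter region of each gene in each library, with Sham in blue and UNx in orange, and with black bars for the mean and SD of 3 libraries. Slc20a1 lies near 99.0 in both groups, and Pth1r is lowest, with Sham points up to 53.5 and UNx points from 61.4.

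Over the 95 tested regions, more differences were above 0 than below it. The groups did not overlap in 17 of the 95 tested regions (17.9%), against 23.7% of all tested regions. Of these, 16 were higher and 1 lower in UNx, whereas over all tested regions 8945 were higher and 8772 lower. The lower one, chosen after its values were seen, lay past the end of Pdzk1 (86.1, 91.7 and 82.5 in Sham and 76.3, 75.8 and 79.5 in UNx, limma adjusted p = 0.155). Differences were above 0 in 65 of the 95 (68.4%), against 37352 of all 74774 tested regions. Ranking by fold enrichment gave 39 of 77 above 0.

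The median difference was 2.57 over the 13 own promoters, 11 of them above 0 (0.979 without UNx 3), and 0.0039 over all tested regions within 1 kb of a coding start. It was 4.26 over the 70 tested distal regions, 47 of them above 0, and -0.018 over all tested regions farther from a start. These medians are a description of regions chosen with results known and carry no test. Ranking by the authors' fold enrichment in place of −log10 q turned the promoter median to -2.65 (-0.991 over all promoters) and brought the distal one to 0.422 (0.397 over all distal regions). At the edge of the 20 kb rule, the last region inside, 19771 bp from Kl, ranked at 22.6 to 33.0. The first outside, 21032 bp from Slc34a3, ranked at 63.9 to 75.2.

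**Figure D4:**
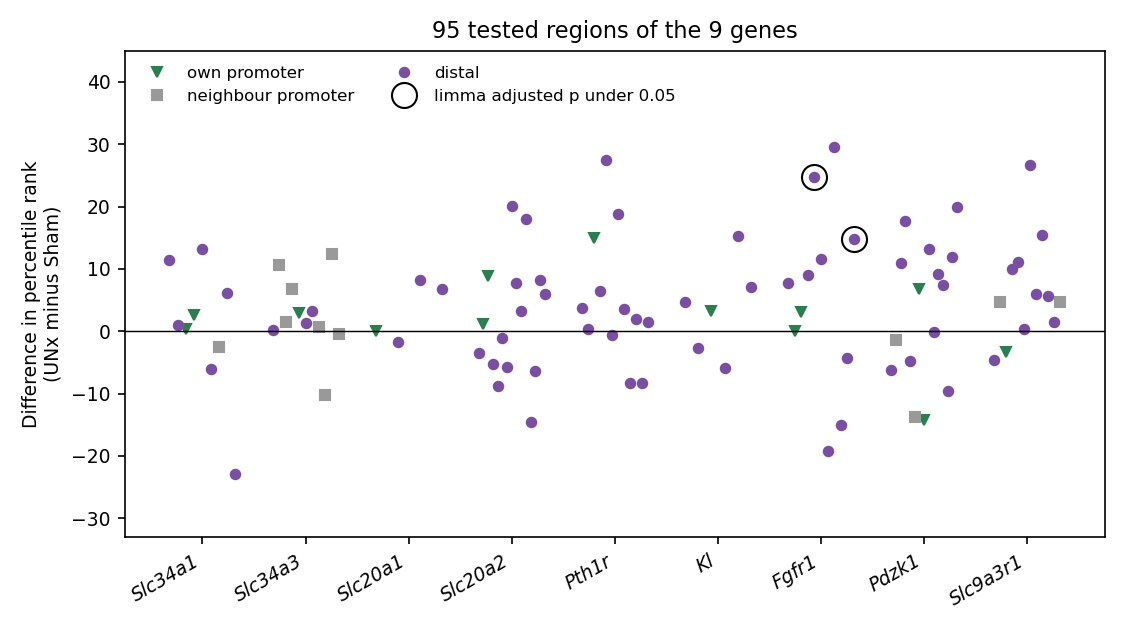
Difference in percentile rank (UNx minus Sham) of the 95 tested regions by gene, ordered within a gene along its strand. Triangles are own promoters, squares promoters of neighbouring genes, circles distal regions, and rings mark the 2 regions with a limma adjusted p under 0.05. Both ringed regions belong to Fgfr1, and 65 of the 95 points lie above 0, against 39 of 77 when peaks are ranked by fold enrichment.

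Other genes of the pathway were read at their promoters. Of 59 genes in 6 lists, 49 had a promoter region and 48 were tested, of which 0 passed limma at an adjusted p under 0.05, and 5 had an unadjusted p under 0.05 (18.6% over all tested regions). With normal scores of the ranks, 1 passed. Klb, which encodes beta-klotho, was chosen after its values were seen. Among the peaks kept, it had a weak promoter peak in all 3 Sham (8.47, 3.53 and 9.44) and in 0 UNx libraries. The Klb difference was -7.15 (limma adjusted p = 0.596), and 1.96% of all regions were exclusive to one operation in this way. The groups were separate in 14 of the 48, against 20.8% of all tested regions within 1 kb of a coding start, and differences were above 0 in 18 (median -0.70). The hormone genes Pth and Fgf23, expressed in the parathyroid and in bone, had no promoter region in any library. Neither did Pth2r, Dmp1, Phex, Casr, Stc1, Adcy6 and Cyp27b1. Ankh, counted among the 59, had no protein-coding entry under that name in the annotation used, so its promoter was not read.

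By list, the count with an unadjusted p under 0.05 was 1 of 5 tested for hormones and their processing, 1 of 11 for other FGF receptors and FGF signalling, and 0 of 11 for PTH receptor signalling. It was 2 of 7 for scaffolds and trafficking, 1 of 11 for other phosphate transporters and sensing, and 0 of 3 for vitamin D control. The share over all tested regions was 18.6%. Mapk3, the kinase ERK1 downstream of FGF receptors, ranked at 82.8, 88.6 and 86.2 in Sham and at 38.6, 49.1 and 77.0 in UNx. All UNx values were below all Sham values, with UNx 3 nearest to them (difference -30.9, limma adjusted p = 0.0532), and without UNx 3 the difference was -42.0 and passed (adjusted p = 0.0168). Ezr encodes ezrin, which ties NHERF1 to actin, and ranked at 90.7, 92.9 and 92.0 in Sham and at 79.6, 84.7 and 79.6 in UNx (difference -10.6, limma adjusted p = 0.0600). The other 3 were higher in UNx without overlap: Stc2, a stanniocalcin, by 22.2, Slc34a2, the NaPi-IIb cotransporter, by 15.1, and Slc9a3r2, the scaffold NHERF2, by 14.5 (limma adjusted p = 0.145, 0.180 and 0.140).

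The promoters of the 8 S1 marker genes, Slc34a1 among them, were present in all 6 libraries, with ranks summing to 656 to 688 in Sham and 668 to 688 in UNx. Of the other lists, a promoter region was found for 3 of 4 S3 genes, 4 of 4 of the thick ascending limb, 1 of 3 of the distal convoluted tubule, 2 of 5 of the connecting tubule and collecting duct, 3 of 3 of podocytes, 5 of 5 of endothelium, 1 of 4 of stroma and 0 of 4 of immune cells. Slc7a13, Slc12a3, Pvalb, Aqp2, Scnn1b, Atp6v1g3, Pdgfrb, Acta2, Tagln and the immune markers were at 0 in every library. Summed ranks were 72.6 to 113 in Sham and 66.0 to 74.1 in UNx for S3, 119 to 125 and 84.7 to 150 for the thick ascending limb, and 0 to 21.3 and 15.3 to 34.8 for the distal convoluted tubule. They were 134 to 155 and 149 to 153 for the connecting tubule and collecting duct and 68.9 to 69.4 and 53.9 to 66.1 for stroma. Endothelial markers summed to 6.49 to 42.3 in Sham and 0 to 5.81 in UNx. The podocyte markers Nphs1, Podxl and Synpo summed to 106 to 145 in Sham and 137 to 163 in UNx. Of the 3, Synpo passed the test (52.4, 46.6 and 40.1 in Sham and 71.7, 80.8 and 80.0 in UNx, limma adjusted p = 0.0373), and the difference was 3.48 for Nphs1 and -8.40 for Podxl. The Synpo call was kept only with normal scores of the ranks, among 16 other settings. Of the thick ascending limb markers, Slc12a1 ranked at 57.9, 52.4 and 60.2 in Sham and at 38.2, 33.1 and 19.7 in UNx, and Umod at 65.1, 66.2 and 65.0 in Sham and at 68.9, 74.2 and 65.0 in UNx. Cldn16 and Kcnj1 had a peak in UNx 1 alone (4.49 and 38.4). The part of other cells in the results for the 9 genes was not tested.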

How the data were processed

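ATAC-seq peaks of 3 Sham and 3 UNx libraries were analysed. The authors deposited 1 narrowPeak list per library, with a fold enrichment (a ratio), a −log10 p, a −log10 q and a display score per summit, which are the authors' values. Per the submitters' processing notes, the tools were cutadapt 3.4, Bowtie, SAMtools, Picard and MACS2 2.2.7.1, and the build was mm10 (GRCm38). Their settings are not given in the sources used here. −log10 q grows with depth, which is unknown, so no interval that needs depth is given and ranks were compared.

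Each list was reduced to its 77355 strongest distinct intervals by −log10 q, the length of the Sham 2 list, and ranked as percentiles. Merging intervals that shared 1 bp or more gave 99340 regions, with a rank of 0 where a list lacked the region. The 74774 regions present in at least 3 lists were fitted with limma 3.58.1 in R 4.3.3 (eBayes with trend and robust variance, all 6 libraries, two-sided, Benjamini-Hochberg adjustment over all tested regions, threshold 0.05). The fit was tested on simulated data. Some items of the lists and 1 sequence are not reported here. Genes and starts came from GENCODE M21 (basic set).

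Named were each gene's own promoter and distal region of highest mean and its own promoter or distal region of smallest unadjusted p, every region called or exclusive to one operation, and the 2 other pathway promoters of smallest p. The genes, lists and tests were chosen with earlier results of these data known. The fit with the replicate number as a block and the other alternatives are given in the closing section.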

Additional observations from a re-analysis of the deposited data

How the results depend on the processing

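Of the settings tried, leaving out each library in turn gave 0 called regions of the 9 genes each time, 25 to 29 with groups that do not overlap, 1 to 4 exclusive to one operation, medians of 0.979 to 3.65 for own promoters and 3.59 to 5.42 for distal regions, a difference in peaks per list of -4.5 to 0.667, and 0 to 1 called pathway promoters. In the leave-one-out fits, fewer libraries make separation and exclusivity easier by construction. The count of called regions was also 0 by fold enrichment, for the top 20000 peaks, with a reciprocal overlap of 50%, with all deposited peaks and under a −log10 q minimum of 5. It was 0 too without the list-number filter, with plain variance, with GC-corrected ranks and with the replicate block with GC-corrected ranks. It was 1 within 5 kb of the gene, 3 within 50 kb and 2 with normal scores. Over all tested regions calls changed as well, from 604 to 3 by fold enrichment, 2 for the top 20000 peaks and 22 with all deposited peaks. They were 191 with the reciprocal overlap, 177 under the −log10 q minimum and 2 without the list-number filter. With plain variance they were 559, with GC-corrected ranks 2, with the replicate block 56, with both 0 and with normal scores 1555. The cause of the losses at the 9 genes was not tested. With the replicate block the count was 0, and the Fgfr1 regions had adjusted p-values of 0.0714 and 0.0798. Correlations of deviations between libraries of the same replicate number were 0.00825, -0.0997 and -0.0493. Between different numbers they ran from -0.0776 to 0.105. With 3 libraries per group, these values cannot show whether the libraries were paired. Groups were separate in 6 of the 30 regions tested for the top 20000 peaks and in 11 of the 77 by fold enrichment. Under the −log10 q minimum of 5 they were separate in 26 of 97, and within 50 kb, a wider set of regions, in 35. The main fit gave 17 of 95. Shares over all tested regions are not given for these settings, so the counts alone do not show a drop or rise. The exclusive count was 3 with all deposited peaks and with a reciprocal overlap of 50%, and 2 with the 20000 strongest peaks, by fold enrichment, with a −log10 q of at least 5 and within 50 kb. The own promoter median was 7.26 with the 20000 strongest peaks and -2.65 by fold enrichment, and the distal median 0.422 by fold enrichment and 8.66 with a −log10 q of at least 5, where the median of all distal regions was itself 3.67. The difference in peaks per list was 5.33 with the 20000 strongest peaks, -10 by fold enrichment and 7.67 with a −log10 q of at least 5. Normal scores called 1 pathway promoter.

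Reversals of named regions were as follows, in percentile rank. By fold enrichment the differences were -1.31 (Slc34a3 distal), -0.89 (Slc34a3 promoter), -4.26 (Slc20a1 promoter), -1.04 (Slc20a2 promoter), 0.958 (Slc20a2 distal at 17671 bp), and -5.20 and -10.6 (Fgfr1 promoters). With GC-corrected ranks, with or without the block, they were -0.633 (Slc20a1 promoter), 0.227 (the same Slc20a2 region) and -0.866 (outer Slc34a1 start), and that Slc20a2 region gave 0.0377 with all deposited peaks and 0.505 with a −log10 q of at least 5. A reciprocal overlap of 50% gave 5.15 for Ezr and -22.5 for Synpo. Leave-one-out ranges spanned 0 for the Slc34a3 distal region (-1.17 to 5.44), Slc20a1 promoter (-0.244 to 0.243), Slc20a2 promoters (-2.71 to 3.65 and -0.287 to 17.4), Slc20a2 distal region (-2.94 to 0.579), strongest Pth1r distal region (-1.70 to 0.671), Fgfr1 promoter (-1.28 to 1.46) and outer Slc34a1 start (-9.64 to 9.84). None of these reversals passed the threshold. Synpo kept its call with normal scores and in 0 of the other 15 settings that gave it a value. Depth is unknown and could not be weighed.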
